A study of Drosophila melanogaster with 6 samples.

Results

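The cGAS-like receptor, Sting, Relish and siRNA genes of Drosophila melanogaster were followed in embryos that lacked maternal Brakeless. The set holds 7 genes, the receptors cGlr1 and cGlr2, the adaptor Sting, the transcription factor Rel, and the siRNA genes Dcr-2, AGO2 and r2d2, out of 11982 genes with a probe set of 1 symbol on the array. The genes were chosen by 1 measured value, the fall of cGlr2 on these arrays, and by their pathways, so the brakeless against control values of these genes are a description and carry no test. Each of cGlr1, cGlr2, Sting, Rel, Dcr-2 and r2d2 had 1 probe set whose platform annotation gave that symbol alone. AGO2 had none and was not analysed here, so 6 of the 7 genes were measured, all of them reported below.

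Transcript levels came from pools of whole, dechorionated embryos, 2 to 4 h old and kept at 25 °C, on 1-colour Affymetrix arrays with 3 biological replicates in each group. The brakeless group came from FRT2R G13 bks278/FRT2R G13 ovoD1 mothers and bks278/CyO fathers that also carried the FRT2R G13 chromosome. The control group came from mothers of the genotype FRT2R G13/FRT2R G13 ovoD1 and from FRT2R G13 fathers. Both groups thus share the FRT2R G13 chromosome and maternal ovoD1, a dominant female-sterile allele that leaves egg laying to germline clones, and the control chromosome is the unmutagenized parent of the bks278 one. The bks278 allele is a strong one of the gene sbb, which encodes the transcriptional co-regulator Brakeless. Some brakeless embryos were also zygotic mutants, and others received the balancer CyO. On a pool of embryos, fewer cells that express a gene and less RNA per cell cannot be told apart.

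In flies, cGAS-like receptors are nucleotidyltransferases that make cyclic dinucleotides, and cGlr1 is known to do so when it meets double-stranded RNA. Sting binds these dinucleotides and acts through Relish, the NF-kappaB protein encoded by Rel, to turn on antiviral genes. The siRNA pathway is the other main antiviral defence: Dcr-2 cuts long double-stranded RNA into siRNAs, r2d2 is the double-stranded RNA binding partner that helps to load them, and AGO2 carries them and cuts matching RNA. Relish is best known as the end point of the IMD pathway, which answers bacterial peptidoglycan.

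Array medians lay between 3.59 and 3.73 on the log2 scale. Control replicate 3 had a mean correlation of 0.964 with the other arrays, and the other 5 arrays had at least 0.979. The targeted gene sbb read 5.33, 4.45 and 4.61 in brakeless embryos on its probe set 1635211_at, against 6.01, 6.71 and 6.06 in control embryos. That difference of sbb, -1.46, was not called (limma adjusted p = 0.320), and on its dimmer probe sets 1624001_at and 1626352_at the groups overlapped, with differences of 0.08 and 0.11. Of 8 zygotic markers of the blastoderm, all had a mean above 4.50, the 60th percentile of mean signal over all probe sets. The groups did not overlap for 2 of the 8, both of which act in cellularization, where 11.2% of all genes did not overlap. Sry-alpha read 9.44, 9.58 and 9.74 in brakeless and 10.5, 10.5 and 10.8 in control embryos, and nullo read 7.28, 7.62 and 7.91 in brakeless and 8.66, 7.93 and 8.12 in control embryos. Neither was called (limma adjusted p of 0.114 and 0.998), and the gap between the groups of nullo was only 0.02. The part of stage in the differences below was not tested. Of 8 blood cell markers, 3 (He, eater and lz) had means under 3.33, the 40th percentile, and 5 lay above it, led by crq at 7.27 to 8.76 and PPO1 at 4.73 to 6.36. The groups overlapped for all 8 blood cell markers.

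The receptor gene cGlr2 (probe set 1628503_at, 2R, 24965275 to 24967298 in the RefSeq assembly Release 6 plus ISO1 MT, like the positions below) had log2 levels of 4.26, 4.30 and 4.60 in brakeless embryos. Its control arrays read 6.81, 6.69 and 6.51. Every brakeless array thus lay below every control array, with a gap of 1.91 between the nearest ones, while the arrays of a group spanned 0.35 in brakeless and 0.30 in control embryos. The means were 4.39 ± 0.19 in brakeless and 6.67 ± 0.15 in control embryos (mean ± SD of 3 arrays each), giving a difference of -2.28 (SE 0.14, 95% interval -2.63 to -1.93), which puts the brakeless level at 0.205 times the control level on the deposited scale. Of all 18769 probe sets, 29 had a lower difference. The brakeless levels of cGlr2 lay around 4.50, the 60th percentile of mean signal, and detection calls were not used here.

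The relative of cGlr2, cGlr1 (probe set 1633267_a_at, 2R, 15855961 to 15857522), was dim in both groups. It read 2.84, 3.01 and 2.86 in brakeless embryos and 2.64, 2.91 and 2.80 in control embryos. The groups overlapped, and all 6 values were under the 40th percentile of mean signal. The difference was 0.12 (SE 0.12, interval -0.17 to 0.40). RMA compresses differences at such levels, so a change of the cGlr1 transcript could go unseen. The other relative on the fixed lists, mab-21, a developmental gene of the same protein family, was also dim, at 3.03 to 3.17 in brakeless and 2.74 to 3.26 in control embryos.

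The adaptor gene Sting (probe set 1635517_at, 2R, 9842686 to 9845512) was well expressed and overlapped between the groups. Its levels were 8.84, 8.52 and 8.94 in brakeless embryos and 9.07, 8.55 and 8.28 in control embryos. The highest and the lowest value both belonged to control arrays. The difference of 0.13 (SE 0.23, interval -0.43 to 0.69) became -0.05 (interval -0.58 to 0.49) without control replicate 3. Both intervals of Sting span 0.

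Rel (probe set 1627376_at, 3R, 9044183 to 9047977) was the other gene whose groups did not overlap. The brakeless arrays read 9.09, 8.81 and 8.76, and the control arrays read 8.11, 8.58 and 8.01. The lowest brakeless array was 0.18 above the highest control array, a gap smaller than the spread of 0.57 among the control arrays. The means were 8.89 ± 0.18 in brakeless and 8.23 ± 0.31 in control embryos (mean ± SD of 3 arrays each), giving a difference of 0.65 (SE 0.19, interval 0.19 to 1.11) or 1.57-fold. A difference of this size or more in either direction was found for 5.91% of all probe sets, and limma did not call Rel. The difference of Rel stayed between 0.54 and 0.83 when arrays were left out in turn.

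The siRNA genes did not separate the groups. For Dcr-2 (probe set 1641449_at, 2R, 17574979 to 17581525) the brakeless arrays read 8.36, 7.84 and 7.74, against 8.01, 8.14 and 5.93 in control embryos. Control replicate 3 stood 1.81 below the lowest of the other 5 arrays, and the remaining values of both groups overlapped. The difference was 0.62 (SE 0.61, interval -0.87 to 2.11) with all arrays and turned to -0.09 (interval -0.63 to 0.44) without control replicate 3. The positive sign of Dcr-2 therefore rests on that 1 array. For r2d2 (probe set 1634859_at, 2L, 7800147 to 7802098) the levels were 8.85, 8.26 and 8.51 in brakeless and 8.39, 8.77 and 8.82 in control embryos. The groups overlapped, the difference was -0.12 (SE 0.20, interval -0.60 to 0.36), and r2d2 was not low in control replicate 3.

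**Figure D1:**
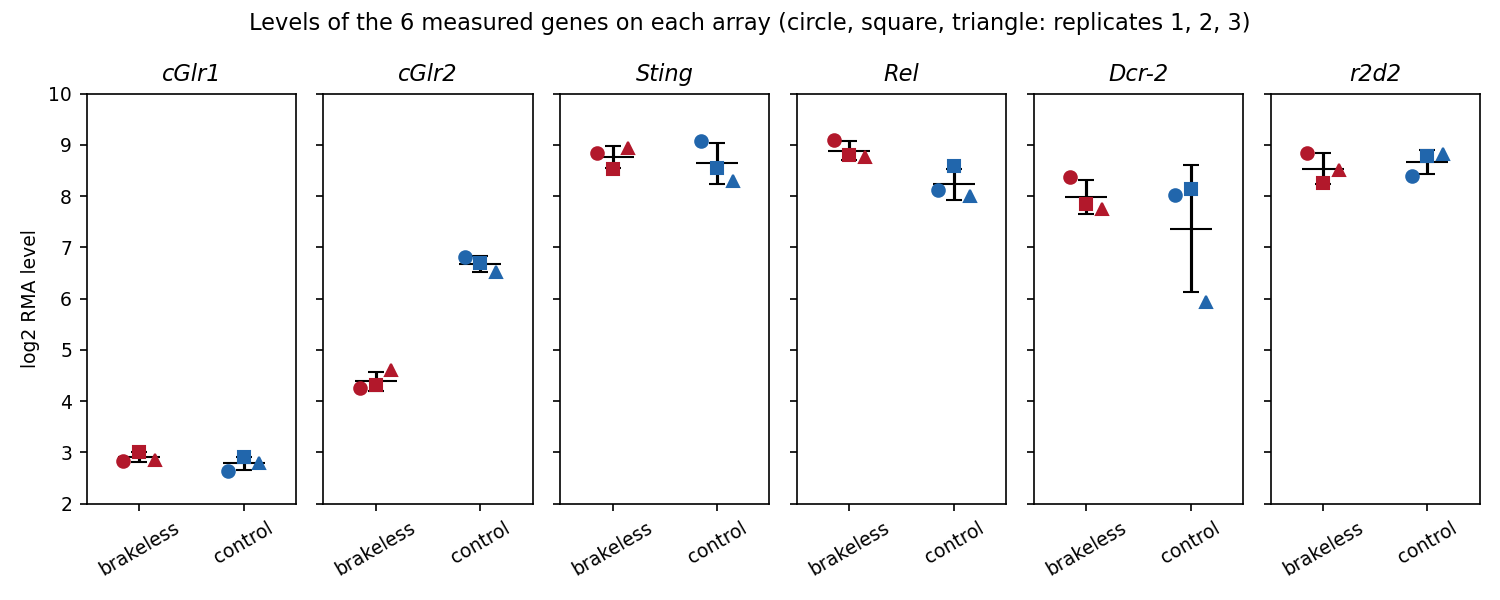
Log2 RMA level (y axis) of the 6 measured genes on each array, with brakeless arrays on the left and control arrays on the right of each panel; points are arrays, horizontal bars are group means and whiskers are 1 SD (n = 3). The groups stand apart for cGlr2 and, by 0.18, for Rel, cGlr1 lies near the bottom of the scale, and control replicate 3 is the low triangle of Dcr-2 at 5.93.

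Counted together, limma called 1 of the 6 probe sets at an adjusted p of 0.05, that of cGlr2, where 0.139% of all probe sets were called. In 2 of the 6, cGlr2 and Rel, the groups did not overlap, where 10.1% of all probe sets did not overlap. As cGlr2 prompted the choice of the genes, nothing is read from either count. Differences were positive for 4 genes and negative for 2, with a median of 0.125 over the 6 probe sets and 0.00221 over all probe sets. The call of cGlr2 itself depended on the arrays used. It was lost without brakeless replicate 1 (limma adjusted p = 0.120), brakeless replicate 2 (0.164), control replicate 1 (0.0538) or control replicate 2 (0.0814), and held without brakeless replicate 3 (0.0363) or control replicate 3 (0.0304). The difference of cGlr2 stayed between -2.39 and -2.21 throughout.

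**Figure D2:**
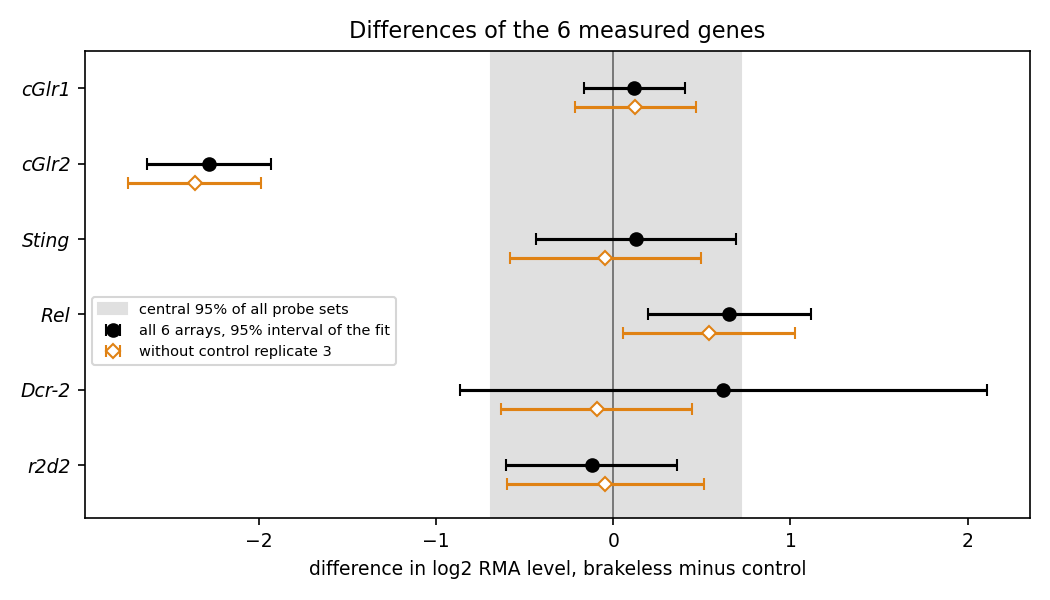
Difference in log2 RMA level, brakeless minus control (x axis), of the 6 measured genes with the 95% interval of the fit; filled circles use all 6 arrays, open diamonds leave out control replicate 3, and the grey band holds the central 95% of the differences of all probe sets (-0.69 to 0.719). Only cGlr2 lies outside the band among these 6 genes, and Dcr-2 moves to -0.09 without control replicate 3.

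Of the 7 genes, 4 (cGlr1, cGlr2, Sting and Dcr-2) lie on 2R, the arm that carries sbb and was mutagenized. The gene cGlr2 is 6.61 Mb from sbb, and Dcr-2 is 0.697 Mb from it. Of the 2733 probe sets of genes on 2R, each matched to 1 gene, 6 were called (0.22%). Of all probe sets, with or without a gene symbol, 0.139% were called, and of all genes, with 1 probe set per gene, 0.184%. Those called on 2R include CG10916 and GLaz, which appear again below. CG10916 lies at 18173669 to 18175725, where sbb lies at 18278198 to 18357296, and had a difference of -1.83 (limma adjusted p = 0.0371). GLaz lies at 13163959 to 13168032 and had a difference of -1.63 (limma adjusted p = 0.0154). Every brakeless array carries the bks278 chromosome, and some brakeless embryos also received CyO, which the control parents did not carry. The loss of Brakeless and any other difference between the chromosomes of the 2 groups thus cannot be told apart here.

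The genes next to cGlr2 had smaller differences. Within 50000 bases of cGlr2, 16 other genes had a probe set, 19 probe sets in all, and limma called 0 of them, with 2 at an unadjusted p under 0.05, where 4.78% of all probe sets had one. Their differences ran from -0.93 to 0.32 with a median of -0.144, and were negative for 13 probe sets and positive for 6. The groups did not overlap for 3 of the 19, 1 higher and 2 lower, where 10.1% of all probe sets did not overlap. The lowest differences were those of CG15861 at -0.93 and CG3770 at -0.87, both highest in control replicate 3. The closest neighbour, CG2765, ends 199 bases before cGlr2 and read 8.43, 8.32 and 8.15 in brakeless and 8.62, 8.34 and 8.46 in control embryos. The difference of CG2765 was -0.17 (SE 0.13, limma adjusted p = 0.998). On the other side, CG3776, which starts 2380 bases after cGlr2, read 10.6, 10.7 and 10.9 in brakeless and 11.0, 10.8 and 10.9 in control embryos, with a log2 difference of -0.21 (SE 0.13). The remaining near neighbours were CG2790 at -0.19, CG12851 at 0.06, Phk-3 at -0.30 and CG2736 at -0.14, with a limma adjusted p of 0.998 for each. Phk-3 was the least certain of these, with an interval from -4.07 to 3.47.

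**Figure D3:**
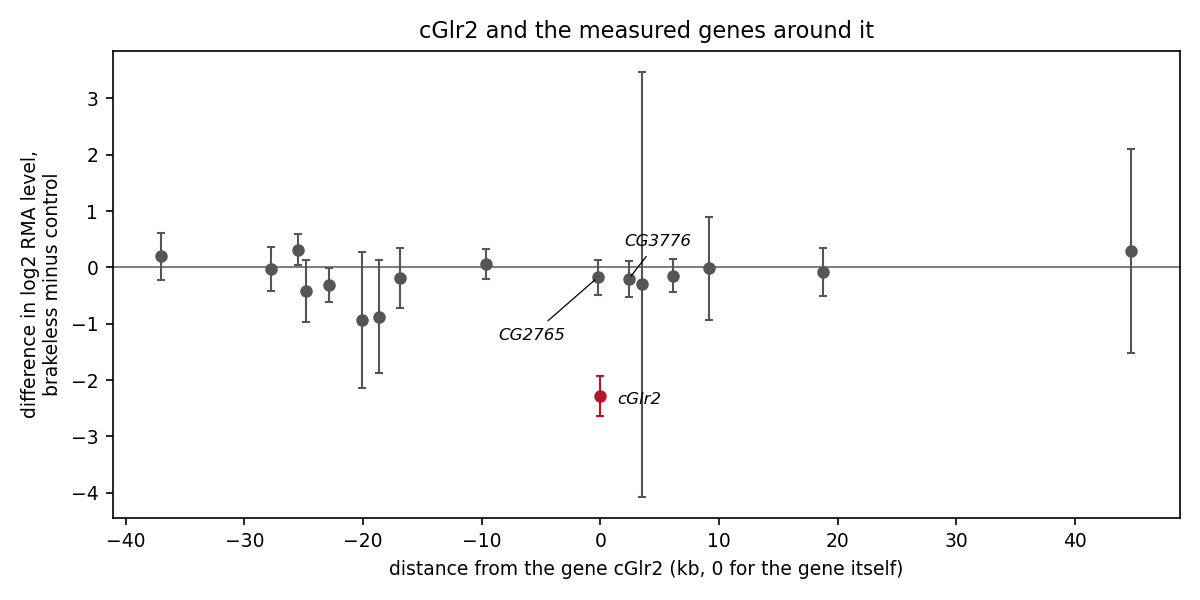
Difference in log2 RMA level, brakeless minus control (y axis), against the distance from cGlr2 in kb (x axis) for cGlr2 (red) and the measured genes around it (grey, 1 probe set per gene); bars are 95% intervals of the fit. The neighbours lie between -0.93 and 0.32, with cGlr2 at -2.28 below all of them.

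The genes whose levels followed those of cGlr2 most closely were genes that separate the groups. Among 2422 probe sets with an SD of at least 0.5 over the 6 arrays, the highest Pearson correlations with cGlr2 were those of CG17167 (0.988), GLaz, a lipocalin (0.987), CG10916 (0.986), Oatp33Ea, an organic anion transporter (0.984), and CG14314 (0.983). In all 5 genes the brakeless arrays lay below the control arrays. These correlations over 6 arrays mostly restate that split. For the deviations from the group means, the correlation with cGlr2 was -0.06 for CG17167, -0.0031 for GLaz, 0.525 for CG10916, 0.501 for Oatp33Ea and 0.094 for CG14314.

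Muscle genes, which come on in older embryos, differed widely between the arrays of each group. The mean log2 level of the 3 measured of 6 muscle markers, Mlc2, up and Tm2, was 3.19, 4.46 and 5.39 in brakeless embryos, against 5.23, 6.20 and 3.91 in control embryos. Over the same arrays cGlr2 spanned 0.35 in brakeless and 0.30 in control embryos. Within the brakeless group, though not within the control group, cGlr2 had the same order of arrays as the muscle means. The differences of Mlc2, up and Tm2 were -0.84, -0.80 and -0.67, with overlapping groups. The part of embryo age in the difference of cGlr2 was not tested. The 4 maternal markers osk, bcd, nanos and gcl averaged 12.1, 11.8 and 11.4 in brakeless and 11.0, 11.9 and 11.0 in control embryos, and the levels of Rel had the same order of arrays as these means within each group. The part of the mix of maternal and zygotic RNA in the difference of Rel was not tested.

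The wider pathways around these genes were described through 8 lists with 54 measured genes of 69 listed. Limma called 0 of the 54, with 6 at an unadjusted p under 0.05, and the smallest adjusted p was 0.252. With 1 probe set per gene, 0.184% of all genes were called and 6.16% had an unadjusted p under 0.05. The groups did not overlap for 11 of the 54 genes (20.4%), 6 higher and 5 lower, where 11.2% of all genes did not overlap. These shares of all genes also stand beside the counts of each list below.

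In the IMD pathway, which leads to Relish, none of 17 measured genes was called in either direction (limma), 2 had an unadjusted p under 0.05, and the median difference was -0.02 against -0.00701 over all genes. Dredd, the caspase that cleaves Imd and Relish, read 8.22, 8.32 and 8.09 in brakeless and 8.71, 8.67 and 8.88 in control embryos, with a log2 difference of -0.54 and an SE of 0.12 (limma adjusted p = 0.352). PGRP-LE, an intracellular receptor for peptidoglycan, read 8.48, 8.57 and 8.65 in brakeless and 7.95, 8.15 and 7.50 in control embryos, with a log2 difference of 0.70 and an SE of 0.18 (limma adjusted p = 0.596). The groups did not overlap for 4 of the 17 genes, Dredd, PGRP-LE, casp and PGRP-LA, where 11.2% of all genes did not overlap. The inhibitor casp had a difference of 0.57 (SE 0.25), or 0.29 without control replicate 3, and PGRP-LA, a dim gene of the peptidoglycan recognition family, had -0.22 (SE 0.11), and the limma adjusted p of each was 0.998.

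The other NF-kappaB genes were dl and Dif, the transcription factors of the Toll pathway, and cact, their inhibitor. None of the 3 was called, and none had an unadjusted p under 0.05 (limma). Their differences were 0.42 for dl (SE 0.25), 0.20 for Dif (SE 0.11) and 0.33 for cact (SE 0.25), and only those of Dif came from groups that did not overlap. The difference of cact was 0.06 without control replicate 3. A dimmer second probe set read -0.03 for dl and 0.015 for cact. Of 14 antimicrobial peptides, targets of the NF-kappaB proteins, 6 were measured. Their levels ran from 2.76 to 5.10 in brakeless and from 2.73 to 4.82 in control embryos, with CecB the brightest and 2 of the 6 under the 40th percentile of mean signal. None was called, and 1 had an unadjusted p under 0.05: Drs, the antifungal peptide Drosomycin, at 3.11, 3.12 and 3.45 in brakeless and 4.12, 3.54 and 3.87 in control embryos, with a log2 difference of -0.62 and an SE of 0.19 (limma adjusted p = 0.747). Def was at -0.29, Mtk at -0.53 and CecB at 0.19.

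Antiviral response and restriction genes gave 0 calls among 7 measured, with 2 at an unadjusted p under 0.05, and a median of -0.133. Srg1, named as a Sting-regulated gene, read 3.60, 3.71 and 3.91 in brakeless embryos, against 4.64, 4.32 and 4.51 in control embryos. Each brakeless array of Srg1 lay below each control array, and the difference was -0.75 (SE 0.14, limma adjusted p = 0.252). The gene pst, which restricts a picorna-like virus in flies, ran the other way, at 7.66, 7.33 and 7.09 in brakeless and 6.23, 5.97 and 6.60 in control embryos. The groups of pst did not overlap either, and its difference was 1.09 (SE 0.22, limma adjusted p = 0.301). Vago, a secreted antiviral protein whose induction depends on Dcr-2, was at 0.35 (SE 0.18), and Nazo, an antiviral effector downstream of Sting, was at -0.30 (SE 0.17). Neither was called, and both were dim, with highest values of 3.89 for Vago and 3.85 for Nazo. Srg1 was dim as well in brakeless embryos, at 3.60 to 3.91, and RMA compresses differences at low levels. The groups of Vago and Nazo did not overlap either, by gaps of 0.02 and 0.03. That makes 4 of the 7 genes, where 11.2% of all genes did not overlap.

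**Figure D4:**
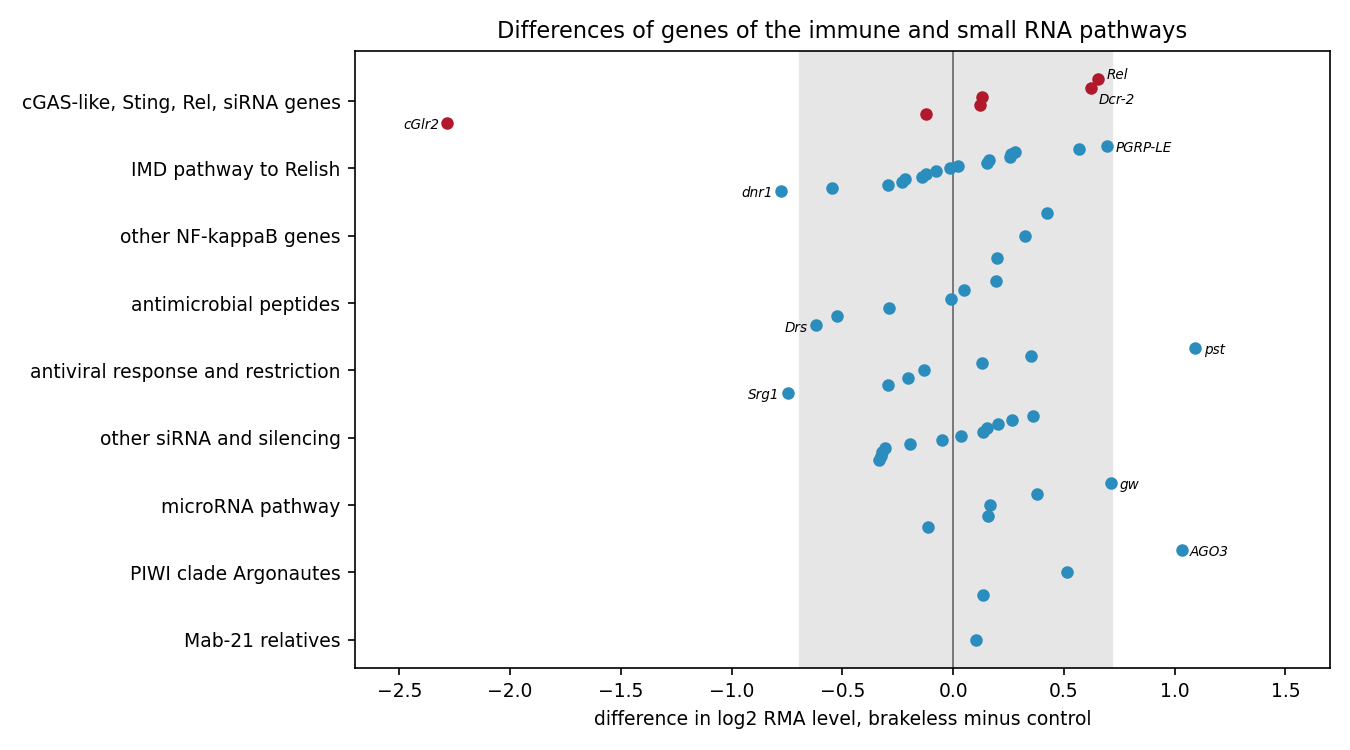
Difference in log2 RMA level, brakeless minus control (x axis), of the 6 measured genes of the set (red) and of the 54 genes of the pathway lists (blue, 1 point per gene), with the central 95% of all probe sets in grey; genes past 0.6 in either direction are named. The 54 list genes lie between -0.78 and 1.09, and none of them was called.

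Small RNA genes beside Dcr-2 and r2d2 were not called. With 1 probe set per gene, 0.184% of all genes were called, so nothing is read from 0 calls in lists this small. An unadjusted p under 0.05 was found for 6.16% of all genes (limma). None of the 12 other siRNA and silencing genes was called, 1 had an unadjusted p under 0.05 (limma), and the median difference was -0.00639. That gene was Cbp80, a subunit of the nuclear cap-binding complex, at 0.36 (SE 0.13, limma adjusted p = 0.934), with 7.94, 7.62 and 7.65 in brakeless and 7.48, 7.36 and 7.28 in control embryos. The groups of Cbp80 did not overlap, by a gap of 0.14, where 11.2% of all genes did not overlap. On its dimmer probe set 1623101_at they overlapped, with a difference of 0.27. Cbp20, the partner of Cbp80, was at -0.33 (SE 0.22), vig, a component of the silencing complex, at -0.31 (SE 0.17), and Hen1, the methyltransferase of siRNA ends, at 0.20 (SE 0.17). The difference was 0.06 for Hen1 and -0.19 for Cbp20 without control replicate 3. In the microRNA pathway none of 5 measured genes was called or had an unadjusted p under 0.05 (limma), and the median difference was 0.165. Nbr, an exonuclease that trims microRNAs, was at 0.38 (SE 0.23), pasha and drosha, the nuclear processing pair, at 0.17 and 0.16, and gw, the effector that binds Argonaute, at 0.71 (SE 0.54).

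Control replicate 3 was low for several of these genes, as it was for Dcr-2. It stood more than 1 below the lowest of the other 5 arrays in 4 of the 54 list genes. AGO3, an Argonaute of the piRNA pathway, read 5.09 there and at least 8.38 on the other 5 arrays. The other 3 were gw at 8.44 against at least 10.1, piwi at 7.25 against at least 8.73, and ben, a ubiquitin-conjugating enzyme, at 3.02 against at least 4.68. With all arrays the differences of the PIWI clade were 1.03 for AGO3 (SE 1.07), 0.51 for piwi (SE 0.50) and 0.13 for aub (SE 0.16), with a limma adjusted p of 0.998 for each and none at an unadjusted p under 0.05. Without control replicate 3 the difference was -0.24 for AGO3, -0.06 for piwi, -0.03 for aub and 0.08 for gw. Leaving that array out turned the sign of the difference in 11 of the 54 list genes and moved it by over 1.5 times, with the sign kept, in 20 others.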

How the data were processed

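Total RNA of pooled embryos was hybridized to Affymetrix arrays, 6 in all, and the authors deposited log2 expression values per probe set, normalized with RMA per the submitters' processing notes; its version and settings are not given in the sources. RMA gives the probe intensities of all arrays the same distribution before probe set values are made, and the array medians of those values still differed. It also compresses differences near background and hides a change in total RNA per embryo. The log2 scale was read from the values (1.98 to 14.3). Arrays have no read depth; precision is limited by how many there were. Of 18952 probe sets, 183 array controls were left out. Of the 18769 tested, 13647 had 1 gene symbol, 402 several and 4720 none.

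Brakeless and control arrays were set against each other in limma 3.58.1 under R 4.3.3 (lmFit, eBayes, no covariate, two-sided tests). Probe sets were called at a Benjamini-Hochberg adjusted p under 0.05 over all those tested. Differences are brakeless minus control. For list genes with several probe sets, the one with the highest mean was used. The members and lists were chosen with earlier results of these data known. The genes named were the members, sbb, up to 4 genes per list with the smallest unadjusted p, the nearest 3 measured genes on each side of cGlr2 and the 5 genes most correlated with cGlr2; other genes were chosen after their values were seen. Nothing in the labels says more of the replicates than that they are biological, so p-values measure the spread between these arrays. Gene sequences were not used here. Plots used matplotlib 3.10.9 under Python 3.11.15.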

Additional observations from a re-analysis of the deposited data

How the results depend on the processing

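The fit was repeated with eBayes set to trend and robust, with array weights, after a further quantile normalization, after centring of arrays, without the dimmest 40% or 60% of probe sets, with the replicate block, and with each array left out. Over all probe sets limma called 26 in the comparison as reported, 46 with trend and robust, 74 with array weights, 0 with the replicate block (678 at an unadjusted p under 0.05), and 0 to 33 with an array left out. Leaving out brakeless replicate 1 gave 0 (662 unadjusted), as did brakeless replicate 2 (532 unadjusted) and control replicate 2 (1427 unadjusted). The other settings gave 23 to 34. The correlation of same-numbered deviations ran from -0.398 to -0.232, which cannot settle whether arrays were handled in pairs. The replicate numbers come from the titles. The description of control replicate 3 ends in another number, so the block and these correlations rest on an uncertain number for that array. The call of cGlr2 ended with the block (limma adjusted p = 0.223) and without 4 of the arrays, as given above, and held in the other 6 of the settings with all arrays. Its difference ran from -2.39 to -2.21. The differences of cGlr1 (0.05 to 0.20) and Rel (0.54 to 0.83) kept their sign, and those of Sting (-0.14 to 0.35), Dcr-2 (-0.09 to 1.01) and r2d2 (-0.28 to 0.02) did not. cGlr1 was not tested under the filters, which removed it. No list had a called gene under any of these alternatives (limma). The causes were not tested.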

Other observations

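The neighbour Phk-3 varied more between arrays than any other measured gene within 50000 bases of cGlr2, in both groups. It read 3.39, 5.94 and 8.61 in brakeless and 7.07, 7.75 and 4.02 in control embryos. The mean of the muscle markers ran in the same order of arrays within each group, at 3.19, 4.46 and 5.39 in brakeless and 5.23, 6.20 and 3.91 in control embryos. Phk-3 starts 3545 bases after cGlr2, whose own levels spanned at most 0.35 within a group. This pattern was noticed in the data and has no test.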
